A study of Mus musculus with 6 samples.

Results

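The genes described here encode the enzymes, carriers and regulators of fatty acid oxidation in mitochondria and peroxisomes. They were 33 symbols chosen for that function, and 32 of them had a row among the 21847 genes of the deposited count table. Ppara, which encodes the fatty acid sensing receptor PPARα, was not analysed for expression here. All 32 passed the filter on low counts and were tested with 14605 genes in all.

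RNA was sequenced from mouse cells labelled as sorted splenic macrophages after 3 days of culture on mesenchymal stromal cells (MSCs) of human cord tissue, which carried the quantum dot label Qtracker. Splenocytes depleted of T cells had been added to the plated MSCs, so both groups were exposed to MSCs, and neither group is a culture without them. The 3 Qtracker positive libraries came from sorted cells that held the label and are annotated as having engulfed MSCs. The 3 Qtracker negative libraries came from sorted cells of the same kind of culture without the label. The series' design text calls the libraries paired triplicates, so pairs 1, 2 and 3 each hold a positive and a negative library. Separate mice per replicate are not stated, so the p-values rest on a spread among libraries that could be technical in part. The surface gate is described as CD11b positive without Ly6G in one field and without Ly6C in another, and the strain, sex and age of the mice are not given in the sources used here.

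Fatty acids are oxidised in steps. Acyl-CoA synthetases first join the fatty acid to coenzyme A. In mitochondria the carnitine shuttle carries long chains across the inner membrane, and a cycle of dehydrogenation, hydration, second dehydrogenation and thiolysis shortens the chain, passing electrons to the respiratory chain through electron transfer flavoprotein. Peroxisomes run a parallel cycle on very long, branched and other chains that mitochondria handle poorly, with an oxidase in place of the first dehydrogenase. The PPAR receptors and PGC-1 coactivators are known regulators of these genes, and in macrophages fatty acid oxidation has been studied in connection with alternative activation and with the uptake of dying cells.

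The libraries differed in more than the label. Total estimated counts were 42490705 to 55506993 in the positive group and 33943090 to 44061187 in the negative group. Replicate 1 stood apart from replicates 2 and 3. Over the 32 genes, the median absolute log2 difference between replicates 2 and 3 was 0.0746 in the positive group and 0.0384 in the negative group, whereas replicate 1 differed from them by 0.21 to 0.25 in the positive group and by 0.434 to 0.488 in the negative group. Replicates 2 and 3 still differed by more than counting noise, with a typical gene at 4.23 times the counting variance in the positive and 1.83 times in the negative group, and were kept as separate libraries. That excess does not show that they are independent replicates, and with them summed edgeR called 0 of all tested genes. Defining macrophage genes were present in all libraries, and the summed level of 7 macrophage markers was 7223 to 7556 CPM (counts scaled to a common library size) in positive libraries. In negative libraries it was 489.9 CPM in replicate 1, and 3551 and 3464 CPM in replicates 2 and 3. Of these sums Itgam, the gene of the gate marker CD11b, gave 260, 2269 and 2211 CPM in negative replicates 1, 2 and 3. Its log2 ratios were 3.39, -0.32 and -0.27 in pairs 1, 2 and 3. The other 6 markers were higher in each pair, a pattern that 36.8% of all tested genes showed. The sum is therefore not a measure of macrophage content alone. Of those 7 markers 3 rose in Qtracker positive cells, among them Adgre1, which encodes F4/80 (2.53 ± 0.21 on the log2 scale, standard error). Neutrophil, B, NK and T cell markers were higher in negative libraries. Neutrophil markers (9 genes) summed to 1324 to 1709 CPM in positive libraries, against 2439 CPM in negative replicate 1 and 64626 and 64825 CPM in negative replicates 2 and 3, and 7 of the 9 fell. B cell markers (6 genes, all lower) summed to 181 to 249.7 CPM in positive libraries, against 5007 CPM in negative replicate 1 and 1690 and 1782 CPM in negative replicates 2 and 3. NK and T cell markers (8 genes, all lower) summed to 7.72 to 11.9 CPM in positive libraries and 63.4 to 252 CPM in negative libraries. Eosinophil markers (7 genes) summed to 86.8 to 333 CPM in positive and 32.9 to 56.5 CPM in negative libraries. The granule genes Epx, Prg2, Ear1 and Ear6 rose, and the surface receptor genes Siglecf (-2.77) and Ccr3 (-2.95) fell. Among dendritic markers (6 genes, 5 tested) 3 fell and 1, Bst2, rose. Among stromal and endothelial markers (8 genes, 6 tested) 1 rose, the endothelial gene Kdr, and none fell, with a median of -0.29 on the log2 scale. Tek (-3.15) and Pdgfrb (-1.53) had an unadjusted p under 0.05 by edgeR in the lower direction. The stromal gene Pdgfra was at 0 in all 3 negative libraries and at 0, 0.0611 and 0.0423 CPM in the positive ones. What these cells contributed to the differences below was not tested, and in such bulk samples fewer cells of a type and less RNA per cell cannot be told apart.

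Many fatty acid oxidation genes were higher in cells that held the label, in mitochondrial and in peroxisomal steps. Of the 32 genes 16 rose and none fell by edgeR's quasi-likelihood test with Benjamini-Hochberg adjustment over all genes, where 18.5% of all tested genes rose and 16.3% fell. The median log2 fold change was 0.53 over the 32 genes and -0.01 over all tested genes. Of the 16 that did not pass, 13 had a positive and 3 a negative fold change, and 1 gene, Acsl3, had an unadjusted p under 0.05 in the lower direction. DESeq2 called 18 higher and 1 lower (23.4% and 25.1% of all tested genes), and limma-voom 16 and 0 (20.6% and 19.5%). In all 3 pairs the ratio was above 0 for 25 genes, a pattern that 36.8% of all tested genes showed, and for 21 genes every positive library lay above every negative library (30% of all tested genes). The rises of at least 2-fold numbered 9, and 11.6% of all tested genes were called with such a rise.

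**Figure D1:**
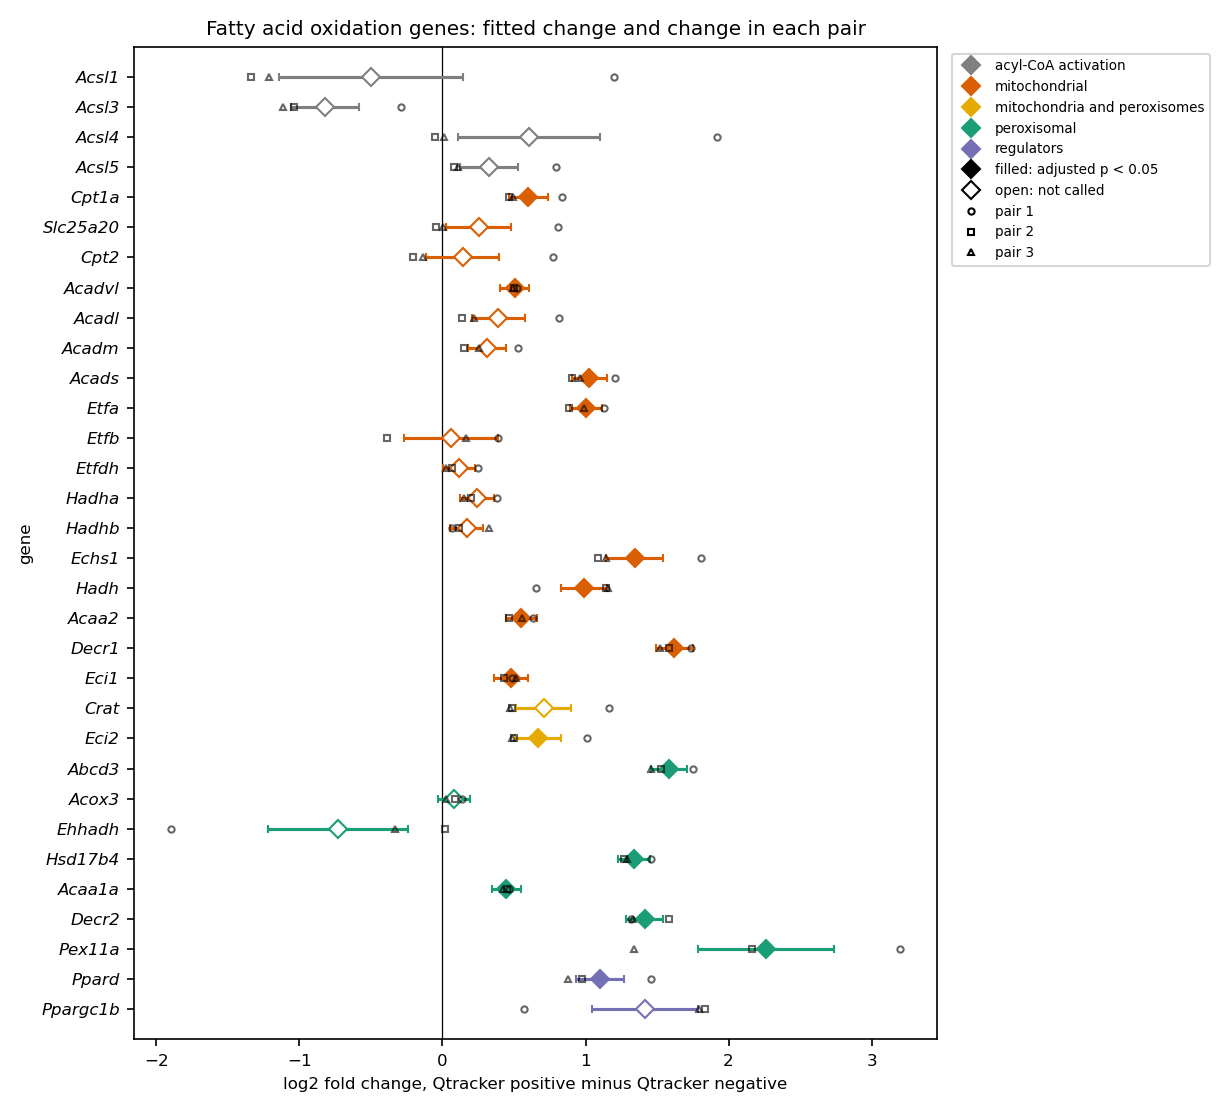
Log2 fold change (Qtracker positive minus Qtracker negative) on the x axis for each of the 32 genes on the y axis, with the standard error as bars, filled diamonds for genes called by edgeR and small symbols for the ratio in each of the 3 pairs. Filled diamonds lie right of 0, and pair 1 departs most from the other pairs in Acsl1, Acsl4 and Ehhadh.

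The count depended on the replicates and on the scaling. Without replicate 1, 22 of the 32 genes rose and 2 fell, against 37.1% and 35.8% of all tested genes, and the 16 genes kept their calls. The p-values without replicate 1, here and for single genes below, rest only on the spread between replicates 2 and 3. Without replicate 2 or without replicate 3 edgeR called none of the 32, with 10 at an unadjusted p under 0.05 in each case (0.917% and 0% of all tested genes were called higher). That is 31.2% of the 32, where 30% of all tested genes without replicate 2 and 28.4% without replicate 3 had such a p. In both, 29 fold changes were above 0. Scaling by library totals alone moved the median of all tested genes to -0.36 and left 9 genes higher and 1 lower (10.8% and 22.7% of all tested genes), with 20 of 32 fold changes above 0 and a median of 0.18 over the 32. With no filter on low counts 12 were higher and 0 lower, with 1 lower at an unadjusted p under 0.05 (11.4% and 9.2% of all genes were called), and when the pairs were ignored 14 were higher and 1 lower (19.9% and 20.9%).

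Of the 3 genes of the carnitine shuttle 1 rose. Cpt1a, the outer membrane carnitine palmitoyltransferase that commits long chains to mitochondrial oxidation (chromosome 19 from 3322334 to 3385733, mm10), stood at 114, 145 and 146 CPM in Qtracker positive replicates 1, 2 and 3, against 63.7, 105 and 103 CPM in the negative replicates. All positive libraries lay above all negative ones, and the gene rose by 0.60 ± 0.14 on the log2 scale (adjusted p = 0.0426), which did not pass when the pairs were ignored (adjusted p = 0.0997), with upper quartile factors (0.053), with library totals alone (0.164) or with no filter (0.0527). Slc25a20, the translocase that exchanges acylcarnitine for carnitine across the inner membrane, had 23.8, 28.6 and 29 CPM in positive and 13.6, 29.5 and 28.9 CPM in negative libraries. Cpt2, which returns the chain to coenzyme A on the matrix side, had 19.1, 18.7 and 19.2 CPM in positive and 11.1, 21.6 and 21 CPM in negative libraries. In both genes negative replicate 1 was the lowest library, and the other negative libraries were close to or above the positive ones. Neither passed the test, with 95% intervals of -0.39 to 0.90 and -0.58 to 0.86 on the log2 scale.

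The acyl-CoA dehydrogenases, which catalyse the first step of each cycle, had fold changes above 0, and 2 of the 4 rose. Acads, for short chains, was at 57.5, 50.3 and 49.9 CPM in positive replicates 1, 2 and 3, against 24.9, 26.8 and 25.6 CPM in negative replicates. The groups did not overlap and the gene rose by 1.03 ± 0.12 (adjusted p = 0.0146). Acadvl, for very long chains, was at 62.7, 62.1 and 62.3 CPM in positive and 43.6, 43.9 and 44.2 CPM in negative libraries and was nearly equal among replicates. It rose by 0.50 ± 0.10 (adjusted p = 0.0322), or 1.42-fold, a call lost with upper quartile factors (0.0747), library totals alone (0.37) and the authors' normalized values (0.177). Acadl, for long chains, averaged 98.7 ± 3.18 CPM in positive and 76.8 ± 17.5 CPM in negative libraries (SD, n = 3 each). Acadm, for medium chains, averaged 32.1 ± 1.76 CPM in positive and 25.8 ± 2.08 CPM in negative libraries. Their log2 changes of 0.39 and 0.31 did not pass (adjusted p = 0.175 and 0.139 by edgeR), and both passed without replicate 1 at lower values of 0.19 and 0.22.

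Electron transfer flavoprotein takes electrons from these dehydrogenases. Its α subunit gene Etfa was at 78.6, 63.7 and 71.5 CPM in positive replicates, against 35.9, 34.5 and 36 CPM in negative replicates, and rose by 1.00 ± 0.11 (adjusted p = 0.0137). Etfdh, the oxidoreductase that hands the electrons to ubiquinone, was at 30.5, 32.4 and 33.2 CPM in positive and 25.6, 30.8 and 32.6 CPM in negative libraries, which overlapped, and its change had a 95% interval of -0.21 to 0.44. The β subunit gene Etfb was counted at only 1.88, 1.32 and 0.993 CPM in positive and 1.42, 1.75 and 0.881 CPM in negative libraries. Of its distinct 31-base words in the GENCODE M21 transcripts, 47.3% also occur in the overlapping gene Gm45233 on the same strand, so the low count of Etfb is uncertain and its fold change of 0.06 was not set against that of Etfa.

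Of the 5 genes for the later steps of the mitochondrial cycle 3 rose. Echs1, the short-chain enoyl-CoA hydratase, was at 117, 94.4 and 101 CPM in positive replicates and 33.4, 44.4 and 45.6 CPM in negative replicates, a rise of 1.35 ± 0.20 (adjusted p = 0.0201). Hadh, the dehydrogenase of short and medium 3-hydroxyacyl-CoA, was at 43, 38.8 and 39.2 CPM in positive and 27.3, 17.5 and 17.6 CPM in negative libraries and rose by 0.99 ± 0.16 (adjusted p = 0.0231), with no call by library totals alone (0.0922). Acaa2, the matrix thiolase, averaged 38.9 ± 1.14 CPM in positive and 26.5 ± 1.37 CPM in negative libraries (SD, n = 3 each) and rose by 0.55 ± 0.11 (adjusted p = 0.0317 by edgeR), which did not pass with upper quartile factors (0.0594) or library totals alone (0.256). The trifunctional protein of the inner membrane carries out these steps on long chains. Its α subunit gene Hadha was at 141, 133 and 129.9 CPM in positive and 109, 116 and 117 CPM in negative libraries, and its β subunit gene Hadhb at 45.8, 42.4 and 49.7 CPM in positive and 43.7, 39.1 and 39.6 CPM in negative libraries. Their changes of 0.24 ± 0.12 and 0.17 ± 0.12 did not pass (adjusted p = 0.181 and 0.302 by edgeR), and both passed without replicate 1 at 0.18 and 0.23. Of the distinct 31-base words of Hadhb 19.5% also occur in the processed pseudogene Gm13910, which leaves its count less certain.

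Unsaturated fatty acids need auxiliary enzymes that move or reduce double bonds. Decr1, the mitochondrial 2,4-dienoyl-CoA reductase (chromosome 4 from 15917240 to 15945507, mm10), had the largest rise among the 17 mitochondrial genes. It stood at 23.8, 21.5 and 21.8 CPM in positive replicates 1, 2 and 3, against 7.13, 7.12 and 7.56 CPM in negative replicates, a 3.07-fold difference with near-equal replicates (log2 fold change 1.62 ± 0.13, adjusted p = 0.00914). Eci1, the mitochondrial enoyl-CoA isomerase, was at 22.6, 15.2 and 16.1 CPM in positive and 16.1, 11.2 and 11.2 CPM in negative libraries. Replicate 1 was highest in both groups, so the groups overlapped although each pair differed by about the same ratio (0.49, 0.43 and 0.52 on the log2 scale in pairs 1, 2 and 3). Its call (adjusted p = 0.0483) was lost without the replicate block (0.157), and under the 6 alternatives that also ended the calls of Acaa1a and Eci2 its adjusted p was 0.0556 to 0.52.

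Where 18.5% of all tested genes rose and 16.3% fell, 9 of the 17 mitochondrial genes rose and none fell (none at an unadjusted p under 0.05 in the lower direction). All their fold changes were above 0, with a median of 0.48 on the log2 scale. Their summed level was 953, 911 and 942 CPM in positive replicates 1, 2 and 3, against 561, 671 and 672 CPM in the negative replicates. By library totals alone, 4 of the 17 rose (10.8% of all tested genes). A list of 30 general mitochondrial genes, such as import channels, chaperones and fission or fusion factors, had 16 genes higher, 1 lower and a median of 0.54. The 1 lower gene was Nrf1, a transcription factor of respiratory genes, named after its value was seen (-0.59 ± 0.11, adjusted p = 0.0292). The lowest p-values of that list belonged to Sod2, the matrix superoxide dismutase (1.48 ± 0.11, adjusted p = 0.0086), and Tomm20, an import receptor of the outer membrane (1.16 ± 0.11, adjusted p = 0.0111). The citrate synthase gene Cs, named here after its values were seen, had a log2 fold change of 0.14 ± 0.16 and did not pass (adjusted p = 0.516).

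**Figure D2:**
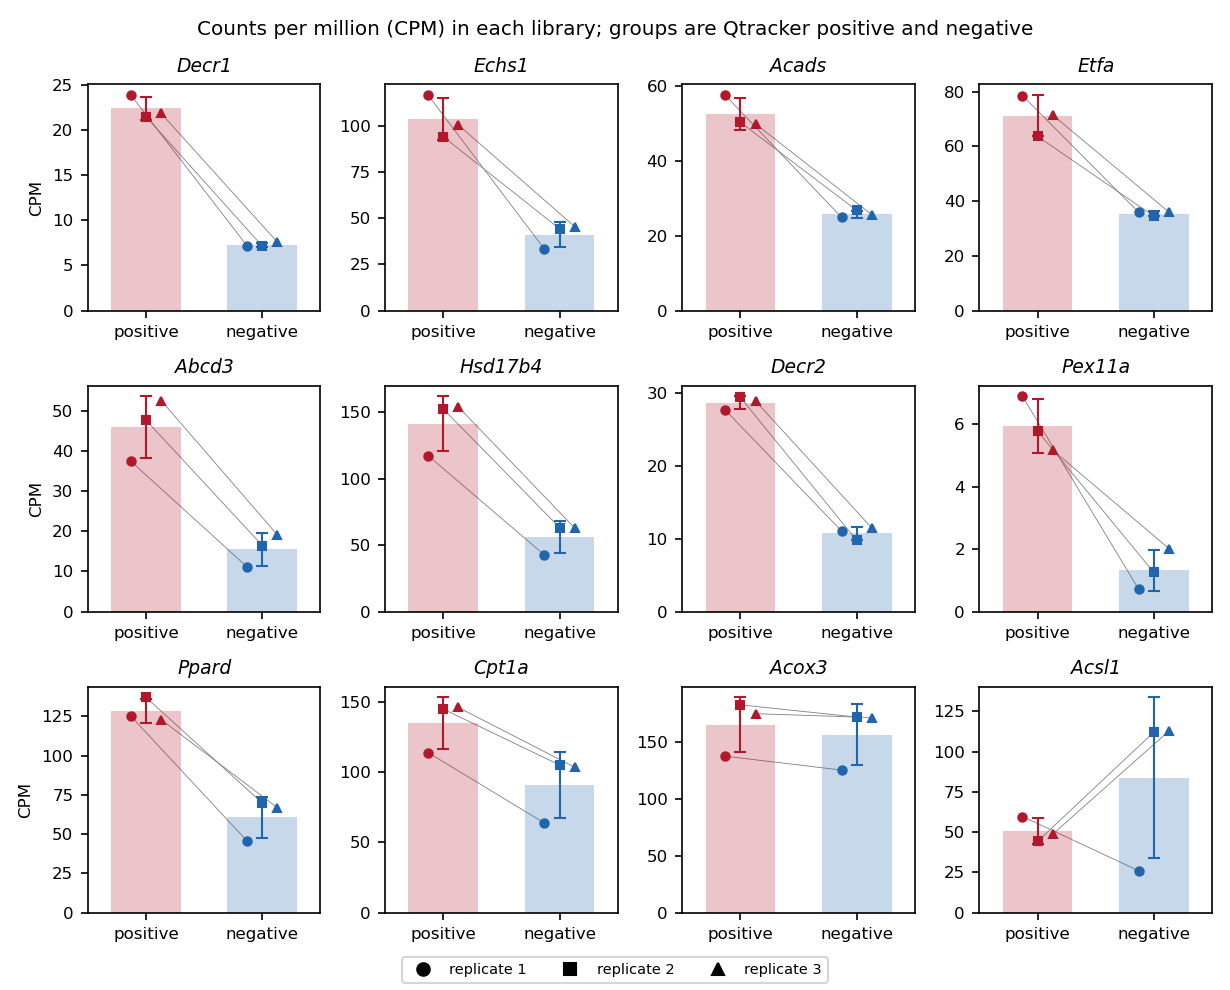
CPM (y axis, from 0) of 12 genes in the 3 Qtracker positive and 3 Qtracker negative libraries (x axis), with bars for the mean, error bars for the SD and grey lines joining the pairs. Decr1, Abcd3, Hsd17b4 and Decr2 are separated in each pair, Acox3 is nearly level, and Acsl1 is low in negative replicate 1 and high in negative replicates 2 and 3.

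Of the 7 peroxisomal genes 5 rose. Abcd3, the transporter (PMP70) that brings acyl-CoA into the peroxisome (chromosome 3 from 121758774 to 121815302, mm10), was at 37.4, 47.6 and 52.5 CPM in positive replicates 1, 2 and 3, against 11.1, 16.4 and 19 CPM in negative replicates. It was 3-fold higher with no overlap (log2 fold change 1.58 ± 0.12, adjusted p = 0.00903). Hsd17b4, the D-bifunctional protein that carries out hydration and the second dehydrogenation (chromosome 18 from 50128201 to 50196269, mm10), was at 117, 153 and 154 CPM in positive and 42.6, 63.3 and 63 CPM in negative libraries. It rose by 1.34 ± 0.11 (adjusted p = 0.00977), and its log2 ratios of 1.46, 1.27 and 1.29 in pairs 1, 2 and 3 were close to each other. Decr2, the peroxisomal 2,4-dienoyl-CoA reductase, was at 27.7, 29.4 and 28.9 CPM in positive and 11.1, 9.76 and 11.5 CPM in negative libraries and rose by 1.41 ± 0.13 (adjusted p = 0.0104). Pex11a, which takes part in the elongation and division of peroxisomes, was low, at 6.9, 5.78 and 5.18 CPM in positive and 0.711, 1.25 and 2.02 CPM in negative libraries. It rose by 2.26 ± 0.48 (adjusted p = 0.0367), with log2 ratios of 3.20, 2.17 and 1.34 in pairs 1, 2 and 3, and its change was 1.36 in the authors' normalized values. Acaa1a, the peroxisomal thiolase, was at 107, 127 and 123 CPM in positive and 77.5, 93 and 91.6 CPM in negative libraries and rose by 0.45 ± 0.10 (adjusted p = 0.044). This call did not pass with median-of-ratios factors (0.0522), upper quartile factors (0.111), library totals alone (0.564), no filter (0.0625), a strict filter (0.0524) or the authors' normalized values (0.102). It shares 16.9% of its 31-base words with Acaa1b, which was counted at 0 in all libraries but positive replicate 2 (0.0611 CPM).

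The other peroxisomal enzymes did not pass. Acox3, the oxidase for branched chains such as pristanoyl-CoA, was at 137, 182 and 175 CPM in positive and 125, 172 and 171 CPM in negative libraries. Its groups overlapped and its change had a 95% interval of -0.23 to 0.40 on the log2 scale. Ehhadh, the L-bifunctional protein that carries out the same reactions as Hsd17b4 with the other stereochemistry, was low, at 2.11, 3.24 and 3 CPM in positive and 8, 3.2 and 3.78 CPM in negative libraries. Negative replicate 1 was the highest of its libraries, and its change of -0.73 ± 0.49 did not pass (adjusted p = 0.302).

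Over the 7 peroxisomal genes 5 rose and none fell (18.5% and 16.3% of all tested genes), with no unadjusted p under 0.05 in the lower direction. Their median log2 fold change was 1.34. Their summed level was 436, 548 and 541 CPM in positive replicates 1, 2 and 3, against 276, 358 and 362 CPM in negative replicates. By library totals alone 4 rose (10.8% of all tested genes), and without replicate 1 the 5 rose (37.1%). Of 18 other tested genes of peroxisomal lipid oxidation 3 rose (16.7%, near the share of all tested genes) and none fell (median -0.01). By edgeR 1 of the 18 had an unadjusted p under 0.05 in the lower direction. Those that rose included catalase, Cat (1.68 ± 0.41, adjusted p = 0.0475), and Abcd4 (0.91 ± 0.12, adjusted p = 0.0176), which is known for cobalamin export from lysosomes and not for peroxisomal transport. Cat stood at 192, 398 and 419.8 CPM in positive and 123, 89.9 and 91.1 CPM in negative libraries, so it differed least in pair 1. Of 15 peroxisome assembly genes 6 rose and none fell (median 0.20, with none at an unadjusted p under 0.05 in the lower direction), and the lowest p-value was that of Pex14, the docking factor for imported proteins (0.70 ± 0.10, adjusted p = 0.0198).

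**Figure D3:**
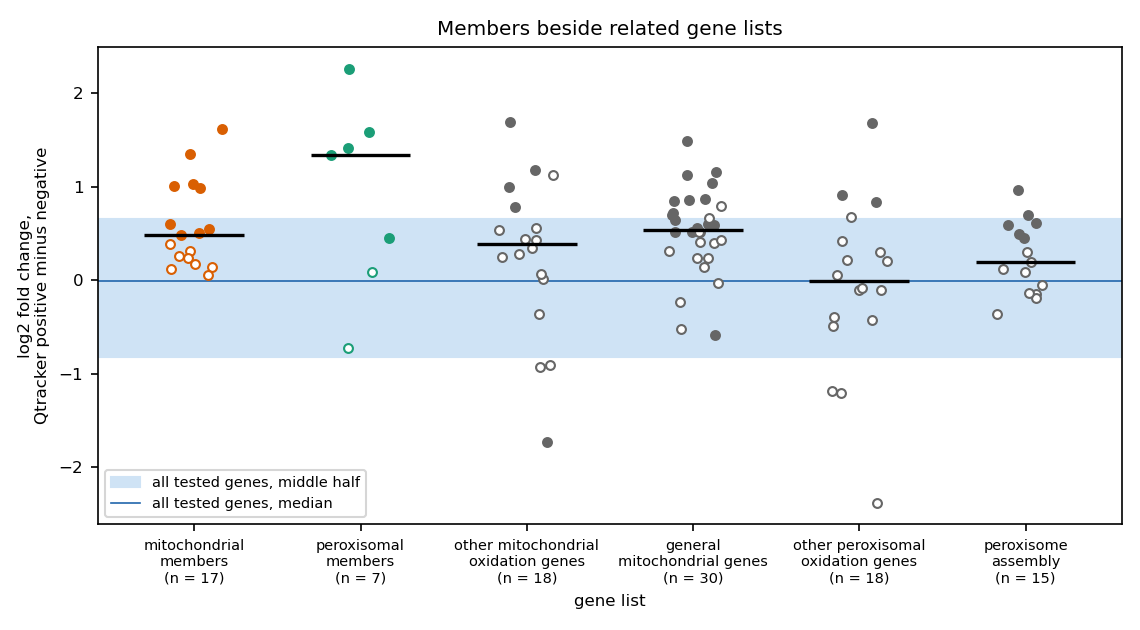
Log2 fold change (Qtracker positive minus Qtracker negative, y axis) of each tested gene in 6 gene lists (x axis), filled where called by edgeR, with black bars for list medians and a blue band from the 25th to the 75th percentile of all tested genes. The medians are 0.48 for the 17 mitochondrial and 1.34 for the 7 peroxisomal genes, against 0.54 for general mitochondrial genes and 0.20 for peroxisome assembly.

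A pair of enzymes act in both compartments. Crat, the carnitine acetyltransferase that exports short acyl groups as carnitine esters, was at 94.6, 112 and 106 CPM in positive and 42.3, 79.5 and 76.3 CPM in negative libraries, which did not overlap. Its change of 0.71 ± 0.19 missed the threshold (adjusted p = 0.061) and passed by DESeq2 (0.0282) and without replicate 1 (0.000174). Eci2, an enoyl-CoA isomerase found in peroxisomes as well, was at 42.7, 35 and 35.2 CPM in positive and 21.2, 24.7 and 25.1 CPM in negative libraries and rose by 0.67 ± 0.16 (adjusted p = 0.048). The call was lost under the same 6 alternatives as that of Acaa1a, with adjusted p of 0.0545 to 0.133.

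The genes for activation of fatty acids had fold changes in both directions. None of the 4 long-chain acyl-CoA synthetase genes passed the edgeR test, 1 had an unadjusted p under 0.05, and DESeq2 called 1. That gene was Acsl3, the form of the endoplasmic reticulum and lipid droplets, at 8.67, 6.5 and 5.75 CPM in positive and 10.6, 13.4 and 12.5 CPM in negative libraries. Every positive library lay below every negative one, and the change of -0.82 ± 0.24 missed the threshold (adjusted p = 0.0673), but passed by DESeq2 (0.0173), without the block (0.0292), without replicate 1 (0.000183), with library totals alone (0.0261) and under upper quartile scaling (0.0405). Acsl1, the form known for mitochondria and neutral lipid pools, was at 59.8, 44.3 and 48.8 CPM in positive replicates 1, 2 and 3, against 26, 112 and 113 CPM in negative replicates. The pairs went opposite ways, with log2 ratios of 1.20, -1.34 and -1.21. Without replicate 1 the gene fell by 1.26 on the log2 scale (adjusted p = 1.18e-05 by edgeR), a p-value that rests on the closely similar replicates 2 and 3. Without replicate 2 or replicate 3 its change was -0.004 or -0.07 and did not pass (adjusted p = 0.998 and 0.96 by edgeR). Acsl4, which prefers arachidonic acid, was at 101, 64.2 and 68.2 CPM in positive and 26.8, 66.4 and 67.6 CPM in negative libraries. Again negative replicate 1 was far below the other negative libraries, and pairs 2 and 3 were level (log2 ratios of 1.92, -0.05 and 0.01 in pairs 1, 2 and 3). Acsl5, another form of the outer mitochondrial membrane and endoplasmic reticulum, was at 181, 139 and 147 CPM in positive and 105, 132 and 136 CPM in negative libraries, with a 95% interval of -0.25 to 0.90 on its change. In negative libraries Acsl1, Acsl4, the summed neutrophil markers and the summed macrophage markers (489.9 CPM, against 3551 and 3464 CPM) were all lower in replicate 1 than in replicates 2 and 3, and the summed B cell markers were higher in replicate 1. The part of these cells in the Acsl1 and Acsl4 values was not tested.

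**Figure D4:**
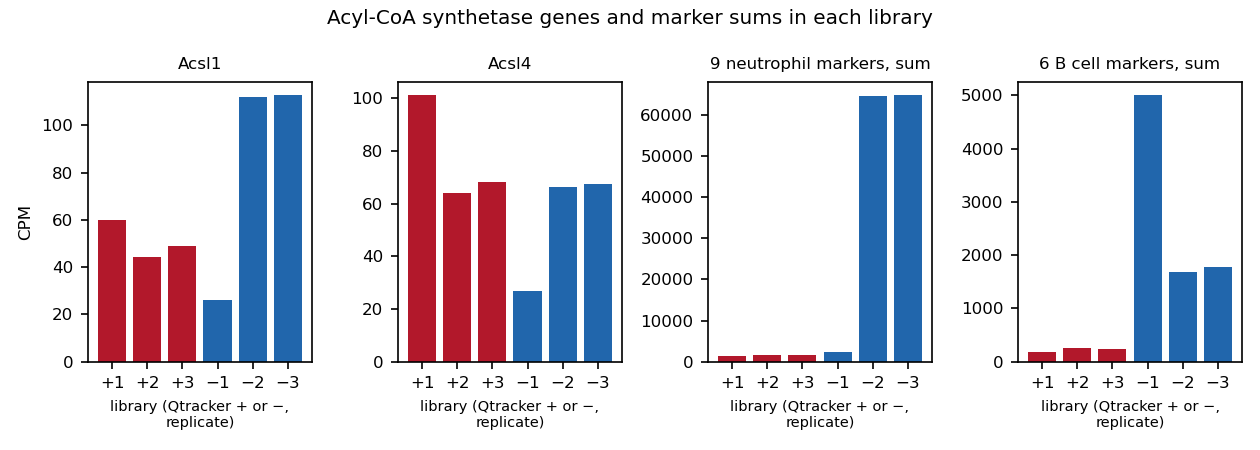
CPM (y axes, from 0) of Acsl1, Acsl4, the sum of 9 neutrophil markers and the sum of 6 B cell markers in the 3 Qtracker positive (+) and 3 Qtracker negative (−) libraries (x axis). Negative replicate 1 is low for Acsl1, Acsl4 and the neutrophil sum and highest for the B cell sum.

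Among the regulators, Ppard, which encodes the fatty acid receptor PPARδ (chromosome 17 from 28232700 to 28301474, mm10), was at 125, 137 and 123 CPM in positive replicates 1, 2 and 3, against 45.6, 69.8 and 66.8 CPM in negative replicates. It rose 2.15-fold with no overlap (log2 fold change 1.10 ± 0.17, adjusted p = 0.0208). Ppargc1b, which encodes the coactivator PGC-1β, was low, at 7.27, 6.74 and 5.68 CPM in positive and 4.88, 1.86 and 1.61 CPM in negative libraries. Its change of 1.42 ± 0.37 missed the threshold (adjusted p = 0.0551), and passed by DESeq2 (0.00453) and without replicate 1 (0.00029). Of 17 tested genes on a list of other PPAR regulators and typical targets 7 rose and 3 fell (18.5% and 16.3% of all tested genes, list median 0.59). The lowest p-values belonged to the fatty acid binding protein gene Fabp4 (6.87 ± 0.15) and the lipoprotein lipase gene Lpl (4.57 ± 0.21), both with adjusted p = 0.00585 by edgeR. Named after their values were seen, Pparg rose to 10.3, 6.68 and 4.99 CPM in positive libraries, against 0.138, 0.403 and 0.795 CPM in negative libraries, and the PPAR partner receptor Rxra to 229.6, 342 and 328 CPM in positive libraries, against 11.6, 28.5 and 26.4 CPM in negative libraries. Ppargc1a, which encodes PGC-1α, was at 0.0529, 0.163 and 0.148 CPM in positive libraries and at 1.28, 0.537 and 1.07 CPM in negative libraries and fell, with a log2 fold change of -2.90 (adjusted p = 0.0473). The other genes that fell were the corepressor gene Ncor1 (-0.60, adjusted p = 0.0359) and Slc27a3 (-2.26, adjusted p = 0.0394), of the fatty acid transport protein family, both also named after their values were seen. The targets Ucp2 (0.06, adjusted p = 0.767) and Angptl4 (0.04, adjusted p = 0.968) did not pass.

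Other genes next to the pathway were mixed. Of 18 further tested genes of mitochondrial acyl-CoA, propionate and ketone body metabolism 4 rose (22.2%, against 18.5% of all tested genes) and 1 fell (median 0.39). Oxct1, the transferase that activates ketone bodies for use, was at 227, 203 and 220.4 CPM in positive and 59.4, 71.5 and 70.3 CPM in negative libraries and rose by 1.70 ± 0.15 (adjusted p = 0.00999). The propionyl-CoA carboxylase genes Pcca (1.00 ± 0.11, adjusted p = 0.0138) and Pccb (1.18 ± 0.19, adjusted p = 0.0232) and the methylmalonyl-CoA mutase gene Mut (0.79 ± 0.15, adjusted p = 0.0304), which act in sequence on the remainder of odd and branched chains, also rose. Bdh1, the hydroxybutyrate dehydrogenase, was at 1.72, 1.16 and 1.14 CPM in positive and 7.04, 3.22 and 3.65 CPM in negative libraries and fell, with a log2 fold change of -1.73 (adjusted p = 0.0204). Of 7 acyl-CoA thioesterase genes 1 (14.3%) rose, Acot13 (1.45 ± 0.14, adjusted p = 0.0116), and Them4, next in p, missed the threshold (0.99 ± 0.26, adjusted p = 0.055).

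**Figure D5:**
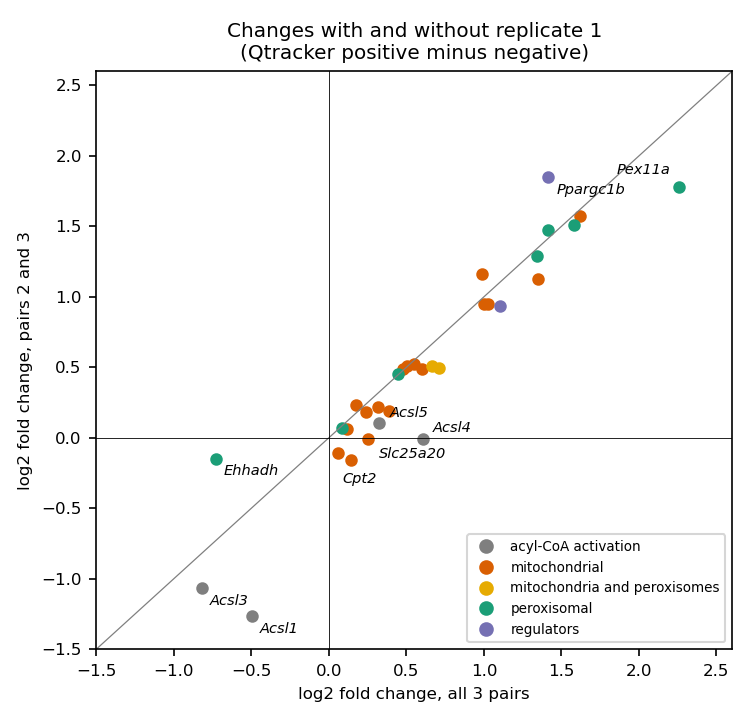
Log2 fold change (Qtracker positive minus Qtracker negative) of the 32 genes with all 3 pairs (x axis) and with pairs 2 and 3 alone (y axis), coloured by role, with a grey line of equal values. Most genes lie near the line, and Acsl1, Acsl4, Ehhadh, Pex11a and Ppargc1b lie farthest from it.

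Levels differed widely between steps. Divided by the length of the principal GENCODE transcript, the highest mean level in positive libraries was that of Acaa1a, at 67.5 CPM per kb in positive and 49.6 CPM per kb in negative libraries. Echs1 had 66.8 CPM per kb in positive and 26.4 CPM per kb in negative libraries, and Hsd17b4 had 52.6 CPM per kb in positive and 21 CPM per kb in negative libraries. The lowest was Ehhadh, at 0.934 CPM per kb in positive and 1.68 CPM per kb in negative libraries. On this per-length scale Hsd17b4 stood far above Ehhadh in both groups.

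Promoter sequence was examined because 16 of the genes rose in the same samples. PPAR and its partner RXR are known to bind a repeat of the hexamer AGGTCA with a 1-base spacer. RefSeq windows ran from 250 bases before to 50 bases after the start of transcription (GRCm38.p6), and 28 of the 33 genes, Ppara among them, had a window. No window was available for Acaa2, Decr1 and Hsd17b4, which rose, or for Crat and Ppargc1b, so these genes were not searched. None of the 30 windows held the AGGTCA repeat (DR1), with any base as the spacer, on either strand, which 0.0396% of all 32851 windows did. None held TCAAGGTCA, a longer form known for the estrogen-related receptors and searched after the data were seen (0.423% of all windows). Exact matches this rare could hardly appear in 30 windows, so their absence cannot decide whether these receptors bind near the genes. The hexamer alone, which those longer motifs contain, was present in 13.3% of the 30 windows and 16.3% of all windows, with no test of the difference. It occurred in Cpt1a, Acadvl and Echs1, which rose, and in Acadm, which did not pass. Stretches around it are given for these genes, 5′ to 3′ on the gene's strand, with the hexamer or its reverse complement TGACCT in capitals.
Cpt1a (chr19:3323183-3323236, + strand): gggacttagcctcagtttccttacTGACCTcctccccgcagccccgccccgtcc
Acadvl (chr11:70015486-70015539, − strand): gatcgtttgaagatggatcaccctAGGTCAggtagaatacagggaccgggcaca
Echs1 (chr7:140116475-140116528, − strand): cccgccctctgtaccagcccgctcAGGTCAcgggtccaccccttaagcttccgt
Acadm (chr3:153944863-153944893, − strand): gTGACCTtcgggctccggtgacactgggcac
Counted from the RefSeq start of transcription, the hexamer begins 94 bases before it in Cpt1a, 87 in Acadvl, 83 in Echs1 and 249 in Acadm. The GENCODE starts differ. There Cpt1a begins at 3322334, so its stretch lies inside the gene, and Echs1 begins at 140116476, closer to its hexamer. A match of letters is not a binding site, and the windows leave out introns and distal elements.

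The subunit genes of the trifunctional protein, Hadha and Hadhb, are transcribed away from each other from RefSeq starts with 272 bases between them (GRCm38.p6), so their windows overlap. In GENCODE Hadha reaches to 30155162 and Hadhb begins at 30155248, so the gap there is shorter. The 250 bases before the RefSeq start of Hadhb (chr5:30155003-30155252, + strand) are shown because they lie between the RefSeq starts of both genes. Part of this stretch lies inside the GENCODE genes.
Hadha and Hadhb: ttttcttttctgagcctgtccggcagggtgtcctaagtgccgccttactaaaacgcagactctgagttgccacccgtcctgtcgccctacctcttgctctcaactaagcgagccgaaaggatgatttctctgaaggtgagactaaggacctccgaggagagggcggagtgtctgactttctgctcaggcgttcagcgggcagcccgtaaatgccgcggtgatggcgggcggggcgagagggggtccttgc
This stretch is 58.8% G and C and holds neither the hexamer nor the longer motifs. The log2 ratios of the genes on either side were 0.38, 0.20 and 0.15 for Hadha and 0.07, 0.12 and 0.33 for Hadhb in pairs 1, 2 and 3.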

How the data were processed

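Per the labels' protocols, RNA was purified from the sorted cells with an RNeasy kit and libraries were made with a KAPA stranded kit. The deposited estimated counts per gene are whole numbers, and mm10, Salmon and FastQC are named, with no version, in the submitters' processing notes. The sources used here state neither how these expected counts came to be whole in the deposited table nor the strand setting. The second deposited table holds a normalized signal whose formula is not stated, and it served only as an alternative, as log2 values after adding a pseudocount of 1.

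Counts were filtered with filterByExpr (10 as minimum count, 15 as minimum total), scaled by TMM and tested with edgeR 4.0.16 in R 4.3.3, with the replicate as a block and an adjusted p threshold of 0.05. Standard errors and 95% intervals were derived from the F statistic, and log2 CPM used a prior count of 2. The pairing came from the series' design text. As a check, each library's deviation from its group mean was correlated with that of its partner across genes, giving 0.2, 0.077 and 0.16. Positive replicate 2 correlated more with negative replicate 3 (0.116) than with its partner, so the check did not establish pairs 2 and 3. Transcript lengths, coordinates and shared 31-base words came from GENCODE M21 (mm10), and promoters from RefSeq (GRCm38.p6). The pipeline was tested on simulated counts with few changed genes and a replicate effect shared by both groups. In these data replicate 1 departed further in the negative than in the positive group, a setting the simulation did not cover. DESeq2 1.42.0 and limma 3.58.1 were alternatives, and figures used matplotlib 3.10.9.

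Every gene of the set is named. From each related list the lowest 2 p-values are named, and all called genes where 5 or fewer were called, except that some genes of these lists are not reported here, so a list can show fewer names than this rule gives. The genes, lists and tests were chosen with earlier results of these data known.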

Additional observations from a re-analysis of the deposited data

How the results depend on the processing

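With 6 libraries and replicate 1 apart, the replicates decided the calls. Over all tested genes 5091 were called, with a range of 0 to 10890 when a replicate was left out and 0 when replicates 2 and 3 of a group were added together. Leaving out a replicate gave 0 to 22 of the 32 genes higher and 0 to 2 lower (16 and 0 with all), 0 to 13 mitochondrial genes and 0 to 5 peroxisomal genes higher. Of all tested genes 0% to 37.1% were then higher and 0% to 35.8% lower. With replicates 2 and 3 summed edgeR called 0 of the 32, with 10 (31.2%) at an unadjusted p under 0.05, against 28.8% of all genes. Of 105 tested related genes 37 rose and 5 fell, where 18.5% of all tested genes rose and 16.3% fell. When a replicate was left out 0 to 62 related genes rose and 0 to 22 fell, beside the same 0% to 37.1% and 0% to 35.8% of all tested genes. The summed version gave 0 and 0. Scaling also mattered. Upper quartile factors left 10 of the 32 higher and 1 lower, with 5 mitochondrial genes higher and 25 related genes higher, where 14.8% of all genes were higher and 18.1% lower. Library totals alone left 9 higher and 1 lower, with 4 mitochondrial genes higher, and 13 related genes higher and 9 lower, where 10.8% of all genes were higher and 22.7% lower. DESeq2 with the block called 1 of the 32 lower and 9 related genes lower, where 25.1% of all genes were lower. Without the replicate block 14 of the 32 were higher and 1 lower, and 8 related genes were lower, where 19.9% of all genes were higher and 20.9% lower. Of the 32 calls only those of Cpt1a, Eci1 and Acsl3 differed. With no filter 3 related genes were lower, where 9.2% of all genes were lower. No called gene of the 32 turned its direction under these alternatives. Of the 16 rises 9 passed in every version that kept all 3 replicates apart, namely Abcd3, Acads, Decr1, Decr2, Echs1, Etfa, Hsd17b4, Pex11a and Ppard. The cause of these shifts was not tested.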
